A study of Mus musculus with 74 samples.

Results

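Transmembrane mucins are large glycoproteins that span the surface membrane of epithelial cells, and 4 of them, Muc1, Muc4, Muc13 and Muc20, were followed by symbol through the RNA of the developing mouse gut. They are 4 of the 24015 gene symbols in the deposited count table, and all 4 were found there. A transmembrane mucin carries a serine- and threonine-rich outer domain covered with O-linked sugars, a membrane span and a short tail inside the cell. These mucins form the glycocalyx of the apical surface, under the secreted mucus that gel-forming mucins such as Muc2 and Muc5ac build. Muc1 is known for its signalling tail, Muc4 as a partner of the receptor Erbb2, Muc13 as a mucin of intestinal epithelium, and Muc20 as a partner of the receptor Met.

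The series holds 74 samples, of which the 31 RNA-seq libraries were used, in 15 groups. Wild-type CD1 embryos gave epithelium of forestomach, hindstomach and small intestine at E12, E14 and E16, and of small intestine also at E18, with 2 libraries in each group. For E12 and E14, small intestine is labelled midgut. The forestomach is the squamous and the hindstomach the glandular part of the mouse stomach. Libraries labelled Cdx2-/- came from small intestine of embryos on a B6;129 mixed background. Those labelled deleted at E10 were Cdx2f/f; Shh-Cre, taken at E16 (3 libraries). Those labelled deleted at E13 (taken at E16) and deleted at E15 (taken at E18) were Cdx2f/f; Villin-Cre given 5 mg of tamoxifen by mouth, with 2 libraries each. Adult ileal villus epithelium, also B6;129 mixed, came from 2 libraries of Cdx2f/f; Villin-Cre mice that had 1 mg tamoxifen daily for 5 days and were taken 3 days after the last injection. Its controls were Cdx2f/f animals given oil (2 libraries), so every adult animal carried the floxed alleles. Shh-Cre acts where the Shh promoter is active and Villin-Cre in villin-expressing epithelium, and what other cells keep is not given. Wild-type and knockout embryos differ in strain and Cre as well as genotype. Tamoxifen is named for the libraries labelled deleted at E13 and E15 and not for their wild types. Adult knockouts and controls differ in Cre and in tamoxifen against oil. The E10 and E13 labels differ in Cre driver and tamoxifen as well as deletion day. Within each of these comparisons the factors cannot be told apart here. The labels do not say whether replicates are separate litters or animals, so p-values measure the spread between libraries, which may be technical.

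Total counts were 5970227 to 62463167 per embryonic library and 14788004 to 23164522 per adult library. Levels are CPM, a gene's counts relative to the TMM-scaled library total, and the adult libraries were scaled apart from the embryonic ones. Cdx2, the homeobox gene that marks the intestine, checked the labels. With the E10 deletion label it stood at 14.5 to 27.5 CPM, against 196 and 218 in E16 wild-type intestine. It was at 213 and 217 in those labelled deleted at E13, at 371 and 388 in those labelled deleted at E15 (200 and 206 in E18 wild type), and at 462 and 472 in the adult libraries labelled knockout (242 and 248 in their controls). In these 3 groups the count therefore did not show the deletion, and directions drawn from them are those of the labelled libraries. The counts are per gene symbol and do not separate the floxed exons from the rest. Among wild-type libraries, Cdx2 went against the label of E12 hindstomach, where it stood at 116 and 160 CPM, as in E12 small intestine (115 and 153) and above E14 hindstomach (6.20 and 12.7). The glandular stomach markers Cldn18, Gkn1, Gkn2 and Tff2 summed to 3.36e-05% to 8.32e-05% of counts in the libraries labelled E12 hindstomach, below the 0.000529% to 0.000585% of E12 small intestine and the 0.0345% to 0.0393% of E14 hindstomach. The intestinal markers Vil1, Cdh17, Cdx1 and Isx summed to 0.00760% to 0.00909% in the libraries labelled E12 hindstomach, near the 0.00823% to 0.00889% of E14 hindstomach and below the 0.0193% to 0.0244% of E12 small intestine. The squamous markers summed to 0.000591% to 0.000820% in them and to at most 0.000180% in E12 small intestine. Every E12 hindstomach value, and every change from E12 in that organ, is therefore that of the labelled libraries. Pancreas markers (Ptf1a, Cpa1, Prss1, Cela1) summed to 0.000471% to 0.000535% in E12, 0.0700% to 0.0721% in E14 and 0.0743% to 0.0876% in E16 hindstomach, and to at most 0.0317% in every other group. The muscle and mesenchyme markers summed to 2.72% to 3.26% of counts in E16 forestomach and 0.904% to 0.940% in E16 hindstomach, against at most 0.175% in every other group. Blood markers summed to 1.51% to 1.95% in E16 forestomach and at most 0.176% elsewhere. The epithelial genes Epcam, Cdh1, Krt8 and Krt18 summed to 0.0739% to 0.0826% in E16 forestomach and to at least 0.289% in every other group. The part of these differences in the E16 forestomach and hindstomach results was not tested.

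Differences were tested gene by gene with edgeR's quasi-likelihood test over all genes of the table, with Benjamini-Hochberg adjustment. A gene was called where the adjusted p was below 0.05 and the log2 fold change at least 1 in either direction. For members and other mucin genes, only called differences are written as higher, lower, rising or falling. Marker sums were not tested, and for them these words compare the values alone. A group with no count has no fold, so a lower bound is given, computed with 3 counts in each of its libraries. Among 23 comparisons, Muc1 was called in 14, Muc4 in 15 and Muc13 in 15, and Muc20 in 4 of the 22 in which it was tested. Over all genes, these comparisons called from 6.83% (hindstomach against small intestine at E14) to 57.4% (E10 against E13 label).

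The levels of the members followed separate courses across organs and days. Muc1 came to mark the hindstomach and Muc13 the small intestine. Muc4 was found at E12 only in the libraries labelled forestomach and last became high in the E18 intestine. Muc20 stayed near the detection limit. Over the 13 embryonic groups, Pearson's r between members' mean log2 CPM ran from -0.466 (Muc1 with Muc13) to 0.486 (Muc4 with Muc13), as a description over groups that share organs and libraries.

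**Figure D1:**
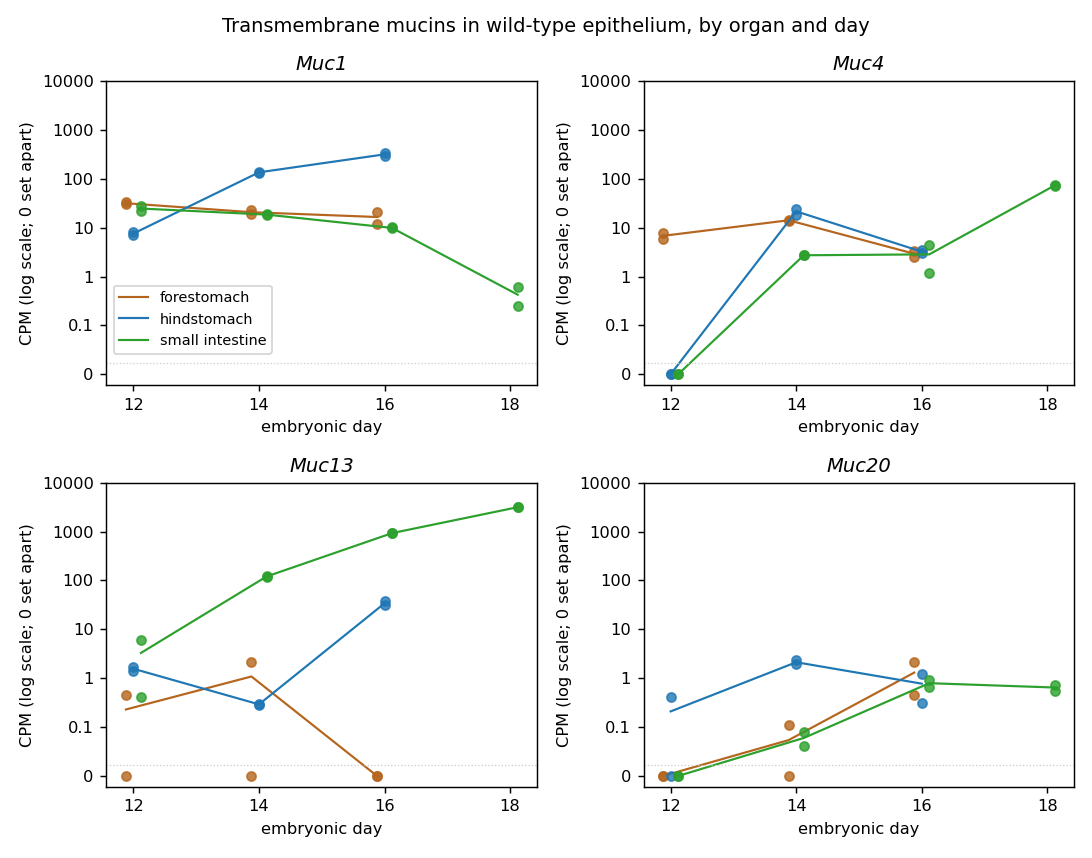
CPM of the 4 transmembrane mucins in wild-type epithelium by embryonic day (log axis, with 0 set apart at the bottom), where points are libraries and lines join group means of forestomach, hindstomach and small intestine. In E16 hindstomach Muc1 reached 335 and 297 CPM, and in E16 small intestine Muc13 reached 932 and 931 CPM.

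Muc1, which has a TATA-like stretch just before its start, is shown first by its upstream sequence. The 250 bases before the Muc1 start are from RefSeq, GRCm38.p6, chr3:89228806-89229055, plus strand, 5′ to 3′, with TATAAA in capitals.
Muc1: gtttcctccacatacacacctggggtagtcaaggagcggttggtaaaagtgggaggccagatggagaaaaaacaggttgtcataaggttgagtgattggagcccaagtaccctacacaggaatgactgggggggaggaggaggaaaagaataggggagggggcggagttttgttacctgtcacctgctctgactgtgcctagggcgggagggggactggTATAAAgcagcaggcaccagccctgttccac
TATAAA sat 31 to 26 bases before the start. It occurs on either strand in 12.4% of the 32851 windows of this length in the same set. Both strands were also searched for forms that CDX proteins bind, spelled CATAAA and, in a longer form, CAATAAA. The forms searched for HNF4 were CAAAGTCCA and, as its other spelling, CAAAGGTCA. Part of an HNF1 site was searched as GTTAAT, the core that SOX proteins bind as ACAATG, and the one that GATA proteins bind as AGATAA. The search found none of these letters in the Muc1 window. CATAAA lies within none of the other forms searched.

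At E12 Muc1 was lowest in the libraries labelled hindstomach, whose Cdx2 level and glandular marker sums, though not their intestinal sums, go against that label as given above. It stood at 30.1 and 33.1 CPM in the forestomach, 8.06 and 7.09 in the hindstomach, and 27.6 and 21.6 in the small intestine. The hindstomach libraries lay below all others of that day. In bulk tissue, fewer cells of a type and less RNA per cell cannot be told apart. The log2 fold change of forestomach over hindstomach was 2.06 (SE 0.25, adjusted p = 1.37e-05), and of hindstomach over small intestine -1.70 (SE 0.25, adjusted p = 0.000142). The latter call was lost when only these groups were fitted (log2 -1.65, adjusted p = 0.129).

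By E14 the order had turned over. Muc1 was at 134 and 137 CPM in the hindstomach, against 18.9 and 22.5 in the forestomach and 17.9 and 19.0 in the small intestine. Hindstomach exceeded small intestine by a log2 fold change of 2.87 (SE 0.25, adjusted p = 2.78e-07) and the forestomach too (log2 fold change of forestomach over hindstomach -2.71, SE 0.25, adjusted p = 3.70e-07). From the libraries labelled E12 hindstomach to those of E14 the rise was 17.9-fold (log2 4.16, SE 0.27, adjusted p = 2.06e-09). Between these groups Cdx2 fell from a mean of 138 to 9.45 CPM, and the glandular and pancreas marker sums were higher at E14; the part of such differences in the rise was not tested.

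At E16 the gap was larger by value, and its change from E14 was not tested as such. Muc1 reached 335 and 297 CPM in the hindstomach, while the forestomach libraries held 12.04 and 20.97 and the small intestine 9.61 and 10.1. Hindstomach stood 32.1-fold above small intestine (log2 5.00, SE 0.28, adjusted p = 2.78e-10) and 19.1-fold above forestomach. The further rise from E14 to E16 was 2.33-fold (adjusted p = 0.000595). Pancreas markers were also higher in E16 hindstomach (0.0743% to 0.0876%) than in small intestine (0.0170% to 0.0202%) and forestomach (0.00210% to 0.00352%), and their part in the Muc1 level was not tested. In the forestomach, neither step passed the test (log2 -0.61 and -0.33). The log2 fold change of forestomach over small intestine, 0.74 (adjusted p = 0.0287), was under the fold limit, and it was called at 1.09 without forestomach E16 replicate 1.

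In the small intestine Muc1 fell to almost nothing before birth. The log2 changes from E12 to E14 (-0.41) and E14 to E16 (-0.91) were not called. From E16 to E18 it fell from 191 and 185 counts to 3 and 11 counts, which is 0.247 and 0.604 CPM (log2 -4.42, SE 0.39, adjusted p = 1.91e-08). Without E18 replicate 1 the value was -4.01, and without E18 replicate 2 it was -5.29. The E16 cells were freed with trypsin and sorted for Epcam, whereas E18 epithelium was released with EDTA, so day and isolation method cannot be told apart. Marker sums of other cell types were lower at E18 as well, for pancreas (0.0170% to 0.0202% at E16, 0.000710% to 0.00100% at E18), mesothelium (0.00706% to 0.00768%, 3.43e-05% to 3.80e-05%) and muscle and mesenchyme (0.158% to 0.175%, 0.00263% to 0.00278%), and their part in the result was not tested. From E12 to E16 the change in Muc1 differed between organs. It was lower in small intestine than in hindstomach by 6.70 on the log2 scale (value -6.70, SE 0.37, adjusted p = 4.44e-10), where 20.3% of genes were called. It was higher in hindstomach than in forestomach by 6.32 (SE 0.37, adjusted p = 6.38e-10), where 20.2% were called.

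Muc4, a membrane mucin known to engage Erbb2, was present at E12 only in the libraries labelled forestomach, among the 3 organs. The 250 bases before its start (RefSeq, GRCm38.p6, chr16:32735636-32735885, plus strand, TATAAA in capitals) are given for comparison with Muc1, since both hold the same letters at a like distance.
Muc4: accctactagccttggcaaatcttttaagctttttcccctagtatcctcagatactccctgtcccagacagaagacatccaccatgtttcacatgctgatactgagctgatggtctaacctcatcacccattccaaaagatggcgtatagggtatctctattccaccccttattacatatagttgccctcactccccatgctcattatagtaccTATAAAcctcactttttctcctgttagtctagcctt
The stretch sat 36 to 31 bases before the start, and no other motif of the search was in the window. In GRCm38.p6 Muc4 and Muc20 overlap on chromosome 16. How strand was treated in the counting is not given in the sources used here, so reads from the overlap cannot be told apart.

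At E12 the forestomach libraries held 222 and 223 Muc4 counts (7.82 and 5.77 CPM). All hindstomach and small intestine libraries of that day were at 0, where 3 counts would be 0.0898 to 0.101 CPM. The forestomach level was at least 74.7-fold higher than in hindstomach (adjusted p = 2.39e-07) and at least 69.0-fold higher than in small intestine (adjusted p = 3.27e-07). The latter had an adjusted p of 0.0638 when only these groups were fitted. Glandular stomach markers summed to 0.00163% to 0.00189% of counts in the libraries labelled E12 forestomach, the highest of that day. Squamous markers summed to 0.00199% to 0.00235% in them, also the highest, and pancreas markers to 0.0108% to 0.0121%. Cdx2 held 149 counts over both libraries and 0 in E14 forestomach. The part of these differences in the Muc4 level was not tested. At this age 2 of 4 members were called between forestomach and hindstomach (Muc1 and Muc4, both higher), against 7.11% of 17239 genes. Between forestomach and small intestine the calls were Muc4 (higher) and Muc13 (lower), against 10.1% of genes. Between hindstomach and small intestine Muc1 was the call, against 9.28%.

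By E14 Muc4 was present in every library of the 3 organs, at 14.5 and 13.8 CPM in forestomach, 24.6 and 18.5 in hindstomach, and 2.72 in both small intestine libraries. Hindstomach exceeded small intestine by a log2 fold change of 2.98 (SE 0.36, adjusted p = 2.45e-05), and forestomach exceeded it by 2.38 (SE 0.35, adjusted p = 0.000101). Forestomach and hindstomach did not differ by the test (log2 -0.61, SE 0.33, adjusted p = 0.317). From E12 to E14 Muc4 rose at least 237-fold in hindstomach (adjusted p = 7.30e-09, from the libraries whose Cdx2 goes against their label) and at least 27.6-fold in small intestine (adjusted p = 4.26e-06, and 0.0671 when only these groups were fitted). In the forestomach it rose 2.09-fold (log2 1.06, adjusted p = 0.0283). That call was lost without any single library of the pair of groups (log2 0.86 to 1.30, adjusted p = 0.0552 to 0.191).

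At E16 the forestomach held 3.40 and 2.45 CPM of Muc4, the hindstomach 3.02 and 3.44, and the small intestine 4.478 and 1.201. All ranges overlapped and no organ comparison of Muc4 was called, which does not show that the levels were alike. The small intestine libraries lay far apart: without replicate 1 of that group, Muc4 was called higher in hindstomach (log2 1.42) and in forestomach (log2 1.28) than in small intestine, and as falling from E14 to E16 in small intestine (log2 -1.18, adjusted p = 0.0177, against 0.07 with both libraries). Muc4 fell from E14 to E16 in forestomach (log2 -2.27, SE 0.42, adjusted p = 0.000210) and in hindstomach (log2 -2.74, SE 0.36, adjusted p = 2.29e-05). In the small intestine Muc4 rose from E16 to E18, where the libraries held 74.2 and 72.5 CPM (log2 4.68, SE 0.39, adjusted p = 2.34e-08), and 4.03 to 5.93 with a single library left out, the lowest without E16 replicate 2 and the highest without E16 replicate 1. As for Muc1, day and isolation method cannot be told apart at this step. The pancreas, mesothelium and muscle sums given for Muc1 were lower at E18 and the intestinal sums higher (0.211% to 0.214% at E16, 0.604% to 0.611% at E18), and their part in the Muc4 and Muc13 values was not tested. There 2 members were higher at E18 (Muc4 and Muc13) and Muc1 was lower, against 42.1% of genes called.

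Muc13, a mucin typical of the intestinal surface, has 2 starts in RefSeq that lie 452 bases apart, and it is the member with letters of the CDX and HNF4 forms near its starts. The 250 bases before the upstream start are at chr16:33793787-33794036 (GRCm38.p6, plus strand), with CATAAA in capitals. Around the downstream start, 30-base stretches at chr16:33794293-33794322 and chr16:33794416-33794445 are shown, with the reverse complement of CAAAGTCCA and with GTTAAT in capitals.
Muc13 upstream start: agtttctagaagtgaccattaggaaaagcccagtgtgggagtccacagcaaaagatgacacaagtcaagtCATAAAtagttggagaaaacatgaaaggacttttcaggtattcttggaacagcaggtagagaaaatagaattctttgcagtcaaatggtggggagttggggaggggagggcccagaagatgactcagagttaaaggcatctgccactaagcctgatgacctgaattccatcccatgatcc
Muc13 downstream start, HNF4 letters: acagttgtccTGGACTTTGagtcaaggata
Muc13 downstream start, HNF1 letters: ttgcctctatcaGTTAATgagtggacttcg
CATAAA sat 180 to 175 bases before the upstream start and occurs in 10.8% of all windows. The HNF4 letters sat 186 to 178 bases before the downstream start (0.384% of windows) and GTTAAT 61 to 56 bases before it (6.43%). Which start was used, or whether any factor was bound, was not measured in the counts. Muc13 overlaps the long noncoding gene Gm15658 in GRCm38.p6.

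Muc13 was low and uneven at E12. The libraries held 13 and 0 counts in forestomach, 45 and 58 in hindstomach, and 12 and 194 in small intestine, so a single library carried the small intestine level (6.18 against 0.406 CPM). The call of lower Muc13 in forestomach than in small intestine at E12 (log2 -4.03, adjusted p = 0.0216) was lost without small intestine replicate 2 (log2 -1.02, adjusted p = 0.636), without forestomach replicate 2 (adjusted p = 0.195), and when only these groups were fitted (adjusted p = 0.488). The sign of hindstomach against small intestine also turned without small intestine replicate 2 (log2 -1.09 with it, 1.93 without it).

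From E14 Muc13 was higher in small intestine than in either part of the stomach. In the small intestine it stood at 126 and 115 CPM at E14, 932 and 931 at E16, and 3169 and 3142 at E18. Each step was called: log2 5.18 from E12 to E14 (SE 0.78, adjusted p = 0.000111), 2.95 from E14 to E16 (SE 0.68, adjusted p = 0.00203) and 1.76 from E16 to E18 (SE 0.65, adjusted p = 0.0282). The first had an adjusted p of 0.0799 when only its groups were fitted, and its size rests on the uneven E12 libraries, at 4.29 without E12 replicate 1 and 8.20 without E12 replicate 2. The last was not called by DESeq2 (adjusted p = 0.241) or without any single library (adjusted p = 0.0754 to 0.117), although its log2 value stayed at 1.76 to 1.77. Day and isolation method cannot be told apart in that last step, over which the marker sums given for Muc1 and Muc4 moved too.

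In the stomach Muc13 differed between forestomach and hindstomach at E16. The difference between them in the change from E12 to E16 was not called. It was called by DESeq2 (7.24, adjusted p = 0.0103) and with only the groups compared (9.71, adjusted p = 0.0408). Both values rest on E16 forestomach at 0 counts and are no measure of size. The forestomach held 0 and 60 counts at E14 and 0 in both libraries at E16, where 3 counts would be 0.459 to 0.463 CPM. Against the E16 small intestine, the forestomach level of Muc13 was at least 2019-fold lower (adjusted p = 2.69e-07), and against the hindstomach at least 73.9-fold lower (adjusted p = 0.000312). In the hindstomach the change of Muc13 from E12 to E14 was not called. It was called as a fall when only these groups were fitted (log2 -2.38, adjusted p = 0.0185). Muc13 was at 8 counts in each E14 hindstomach library and at 699 and 854 counts at E16 (31.01 and 37.14 CPM). That was a rise of 6.85 on the log2 scale (SE 1.01, adjusted p = 5.20e-05). From E14 to E16 hindstomach, marker sums were also higher for enteric neurons and glia (0.00180% to 0.00189% at E14, 0.0550% to 0.0567% at E16), immune cells (0.000388% to 0.000523%, 0.0674% to 0.0827%) and endothelium (0.000151% to 0.000157%, 0.0110% to 0.0152%), and their part was not tested. Small intestine stood 406-fold above hindstomach at E14 (log2 fold change of hindstomach over small intestine -8.67, SE 1.03, adjusted p = 1.37e-05) and 27.3-fold above it at E16 (log2 -4.77, SE 0.74, adjusted p = 6.21e-05).

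The intestinal markers Vil1, Cdh17, Cdx1 and Isx were read beside this rise. They summed to 0.00856% of counts in E14 and 0.0126% in E16 hindstomach, and to 0.0812% and 0.212% in small intestine. Their sum was thus 9.48 times as high in small intestine as in hindstomach at E14 and 16.9 times at E16. For Muc13 the ratio of group means was 413 at E14 and 27.3 at E16. The part of intestinal cells in the hindstomach level of Muc13 was not tested.

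Muc20, a small membrane mucin next to Muc4, was at 66 counts or fewer in every library and at 0 in 6 of the 31. Its highest group mean was in E14 hindstomach, at 2.33 and 1.92 CPM (66 and 51 counts), a range that overlapped that of E16 forestomach, where 1 library reached 2.14 CPM (14 counts). At E14 the forestomach held 0 and 3 counts and the small intestine 3 and 2. The hindstomach level was 36.2-fold that of forestomach (95% interval from the counts 12.1 to 178) and 42.1-fold that of small intestine (17.5 to 132), with adjusted p = 0.0262 and 0.0243. From E14 to E16 Muc20 was called as rising in forestomach (22.2-fold, 6.43 to 118, adjusted p = 0.0168) and small intestine (15.5-fold, 5.97 to 51.3, adjusted p = 0.0376). These intervals cover counting error only. Of these calls, all but the forestomach rise were lost without any single library, and the forestomach rise was lost without 2 of the 4. With a library left out, log2 values at E14 ran from -8.68 to -4.23 (forestomach against hindstomach) and 4.65 to 5.53 (hindstomach against small intestine). The rises to E16 ran from 2.92 to 7.97 in forestomach and 3.23 to 4.11 in small intestine. At E12, 14 counts in hindstomach replicate 2 were the only Muc20 counts in 6 libraries. Without hindstomach replicate 1 the hindstomach was called higher than both other organs at E12 (adjusted p = 0.0210 and 0.0209), and without hindstomach replicate 2 the change to E14 was called (adjusted p = 0.00754). DESeq2 called these 3 as well (adjusted p = 0.0472, 0.0387 and 0.0290), from the libraries whose Cdx2 goes against their label.

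The remaining counts of calls among wild-type organs are set against those over all genes. At E14, hindstomach against small intestine was the comparison in which all 4 members were called, with Muc1, Muc4 and Muc20 higher and Muc13 lower, against 6.83% of genes. Forestomach against hindstomach at E14 gave 2 lower members (8.46% of genes) and forestomach against small intestine Muc4 higher and Muc13 lower (11.9%). At E16 the calls were Muc1 and Muc13 lower in forestomach than hindstomach (20.1%), Muc13 lower in forestomach than small intestine (35%), and Muc1 higher with Muc13 lower in hindstomach than small intestine (25.7%). Between E12 and E14, Muc4 rose in forestomach (12.7%), Muc1 and Muc4 in hindstomach (17.2%), and Muc4 and Muc13 in small intestine (16.2%). Between E14 and E16, Muc20 rose and Muc4 fell in forestomach (37.7%), Muc1 and Muc13 rose and Muc4 fell in hindstomach (22%), and Muc13 and Muc20 rose in small intestine (25.6%).

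Libraries with the E10 deletion label had Muc1 higher and Muc13 lower than wild-type small intestine of E16, and neither differed from E16 hindstomach by the test. Muc1 was at 416, 315 and 245 CPM, above both E16 wild-type intestine libraries and around those of E16 hindstomach. It was 33.0-fold higher than in wild-type small intestine (log2 5.05, SE 0.28, adjusted p = 1.38e-11). Against E16 hindstomach the log2 fold change was 0.04 (SE 0.21, adjusted p = 0.875), and its sign turned without hindstomach replicate 2 (-0.04) or knockout replicate 1 (-0.17). Muc13 was at 18.1, 24.8 and 36.2 CPM, against 932 and 931 in wild-type intestine and 31.01 and 37.14 in hindstomach. It was 35.7-fold lower than in intestine (log2 -5.16, SE 0.64, adjusted p = 1.21e-06), and the log2 fold change against hindstomach was -0.38 (SE 0.60, adjusted p = 0.585). A p above the threshold does not show that the levels were alike, and comparisons here share the E10 libraries.

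Muc4 did not follow either reference organ in the libraries labelled deleted at E10. It stood at 34.7, 44.1 and 27.3 CPM, above every E16 wild-type library of the 3 organs. It was higher than in E16 small intestine (log2 3.63, SE 0.37, adjusted p = 1.24e-07, and 2.98 without wild-type replicate 2 or 4.87 without replicate 1), hindstomach (3.46, SE 0.36, adjusted p = 1.66e-07) and forestomach (3.60, SE 0.40, adjusted p = 4.50e-07). Muc20 was at 4, 6 and 3 counts. Against small intestine Muc1 and Muc4 were higher and Muc13 lower, in a comparison that called 51.5% of genes. Against hindstomach Muc4 was higher (56.3% of genes), and against forestomach Muc1, Muc4 and Muc13 were higher (53.3%), with Muc13 at least 57.2-fold higher. The median log2 fold change over all genes was -0.49 against hindstomach. Glandular stomach markers summed to 0.246% to 0.554% of counts in these libraries and to 0.0631% to 0.0673% in E16 hindstomach. Muscle and mesenchyme markers summed to 0.0133% to 0.0201%, against 0.158% to 0.175% in E16 intestine and 0.904% to 0.940% in E16 hindstomach. Intestinal markers summed to 0.00256% to 0.00510%, against 0.211% to 0.214% in E16 intestine, squamous markers to 0.00283% to 0.0150%, against at most 6.01e-05%, and pancreas markers to 0.00539% to 0.0147%, against 0.0170% to 0.0202%. Their part in the results was not tested.

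**Figure D2:**
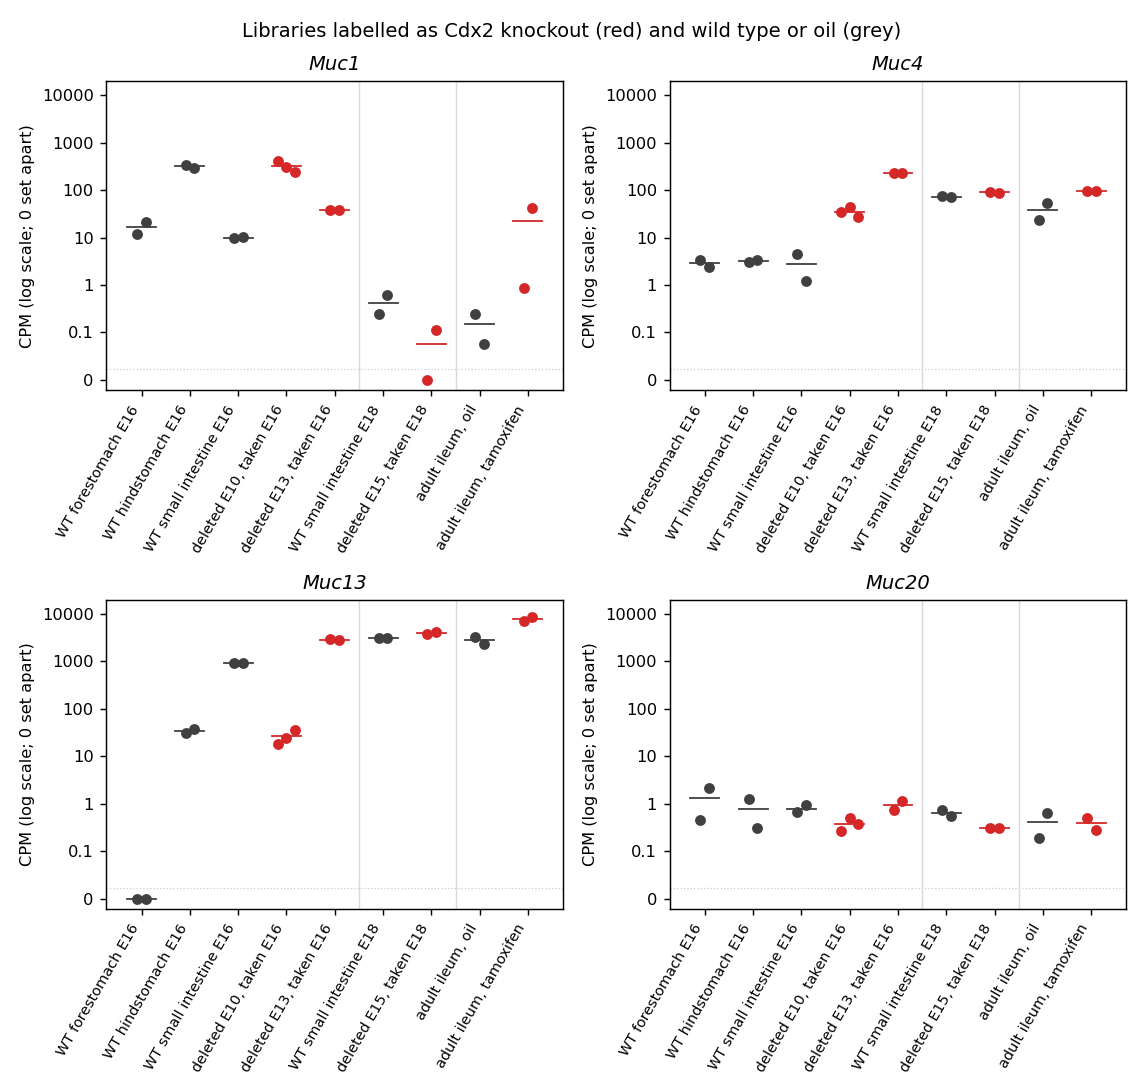
CPM of the 4 members (log axis, 0 set apart) in E16, E18 and adult libraries, where points are libraries and bars group means, with libraries labelled Cdx2-/- in red, and adult libraries scaled apart from the rest. Muc13 lies at 18.1 to 36.2 CPM with the E10 label and at 2869 and 2906 in those labelled deleted at E13, and the 2 adult knockout libraries lie far apart for Muc1.

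The libraries labelled deleted at E13 held more of 3 members than wild-type small intestine of the same day. Muc4 was at 228 and 232 CPM against 4.478 and 1.201, the highest group mean of Muc4 among the embryonic groups (log2 6.33, SE 0.41, adjusted p = 1.39e-09). The log2 value was 5.68 to 7.58 with a single library left out, the lowest without wild-type replicate 2 and the highest without wild-type replicate 1. Muc1 was at 38.6 and 38.4 CPM against 9.61 and 10.1 (log2 1.96, SE 0.25, adjusted p = 2.62e-06). Muc13 was at 2906 and 2869 CPM against 932 and 931. Its log2 fold change of 1.63 was called (SE 0.65, adjusted p = 0.0413), but not by DESeq2 (1.63, adjusted p = 0.294). The call was also lost without any single library, at log2 values of 1.62 to 1.64. This comparison called 39.5% of genes. Between libraries labelled deleted at E10 and at E13, Muc1 was higher (log2 3.08) and Muc4 (-2.70) and Muc13 (-6.79) were lower in the former, where 57.4% of genes were called. Intestinal markers summed to 0.241% to 0.244% of counts in them and 0.211% to 0.214% in E16 wild-type intestine, and glandular stomach markers to 0.181% to 0.186% and at most 0.000541%. Sums for muscle and mesenchyme (0.00526% to 0.00561%, against 0.158% to 0.175%), pancreas (0.00298% to 0.00309%, against 0.0170% to 0.0202%) and blood (0.000225% to 0.000278%, against 0.0191% to 0.0195%) were lower than in E16 intestine. Their part in the results was not tested.

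In the libraries labelled deleted at E15, no difference of Muc4, Muc13 or Muc20 from E18 wild type was called. Muc4 was at 90.3 and 88.8 CPM against 74.2 and 72.5 (log2 0.29, SE 0.32, adjusted p = 0.573). Muc13 was at 3867 and 4075 CPM against 3169 and 3142 (log2 0.33, SE 0.63, adjusted p = 0.783). Muc1 was called lower on very few reads, with 0 and 3 counts against 3 and 11, a ratio of 6.99 (95% interval 1.95 to 37.9, adjusted p = 0.0209). Without knockout replicate 1 or wild-type replicate 2 this call was lost (log2 -1.94 and -1.83). With a library left out the log2 value ran from -6.45 to -1.83. Muc1 was the 1 member called of 4, in a comparison that called 17.5% of genes. The log2 difference of knockout from wild type was higher with the E13 than with the E15 label for Muc1 (by 4.67 on the log2 scale, SE 0.88, adjusted p = 0.000215) and for Muc4 (6.04, SE 0.50, adjusted p = 3.75e-08), where 37.9% of genes were called. Leaving out a library gave 3.79 to 8.41 for Muc1, with the highest value without replicate 2 of the E15 label and the lowest without E18 wild-type replicate 2, and 5.39 to 7.29 for Muc4, the lowest without E16 wild-type replicate 2 and the highest without E16 wild-type replicate 1. For Muc13 it was 1.30 (adjusted p = 0.270), and it was called when only the groups compared were fitted (1.30, adjusted p = 6.02e-10). The groups in that fit had the closest replicate libraries of all, so its spread may be technical. Between these labels, deletion day and day of collection change together, and E16 and E18 cells were isolated differently, so these cannot be told apart. Beside E18 wild type, the E15-labelled libraries also had other marker sums, for intestine (0.222% to 0.226%, against 0.604% to 0.611%), glandular stomach (0.00278% to 0.00300%, against 2.66e-05% to 2.86e-05%) and immune cells (0.000768% to 0.000807%, against 0.0197% to 0.0198%), and their part in the results was not tested.

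In adult ileum Muc13 was higher in the libraries labelled knockout. It stood at 7264 and 8594 CPM against 3259 and 2335 in the oil controls, a 2.83-fold difference (log2 1.503, SE 0.26, adjusted p = 0.0154). It was 1 of the 3 members tested there, against 20.5% of 12444 genes. The call was lost when all 31 libraries were fitted together (log2 1.63, adjusted p = 0.0756). It was also lost without either knockout library or control replicate 2, at log2 values of 1.28 to 1.65. From controls to knockout libraries, intestinal marker sums went from 0.706% to 0.736% down to 0.362% to 0.372%, general epithelial sums from 0.682% to 0.911% up to 1.11% to 1.25%, and immune sums from 0.00242% to 0.00557% down to 0.000385% to 0.000496%, and their part was not tested. Muc4 was at 96.8 and 93.8 CPM against 23.1 and 53.0, above both controls, with a log2 fold change of 1.32 that was not called (adjusted p = 0.0605). It was called by DESeq2 (adjusted p = 0.00426), with no filter (0.0347) and in the fit of all 31 libraries (0.00475). Without control replicate 2 the log2 fold change was 2.04, and without control replicate 1 it was 0.85.

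Adult Muc1 lay far apart in the libraries labelled knockout. The controls held 4 and 1 counts, knockout replicate 1 held 21 and knockout replicate 2 held 602, which is 0.869 and 42.9 CPM. The fitted log2 fold change of 7.11 (SE 2.35, adjusted p = 0.0746) was not called. DESeq2 called it (adjusted p = 0.00440), as did the fits with no filter (0.0409) and of all 31 libraries (0.000158). Without knockout replicate 1 the log2 fold change was 8.13, in a fit where only the controls give the spread. Without knockout replicate 2 the log2 fold change was 2.49. Glandular stomach markers summed to at most 1.23e-05% of counts in the controls, 0.000535% in knockout replicate 1 and 0.00110% in knockout replicate 2. Their part in the Muc1 values was not tested. Muc20 held 3 and 11 counts in the controls and 12 and 4 in the knockouts and was not tested.

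**Figure D3:**
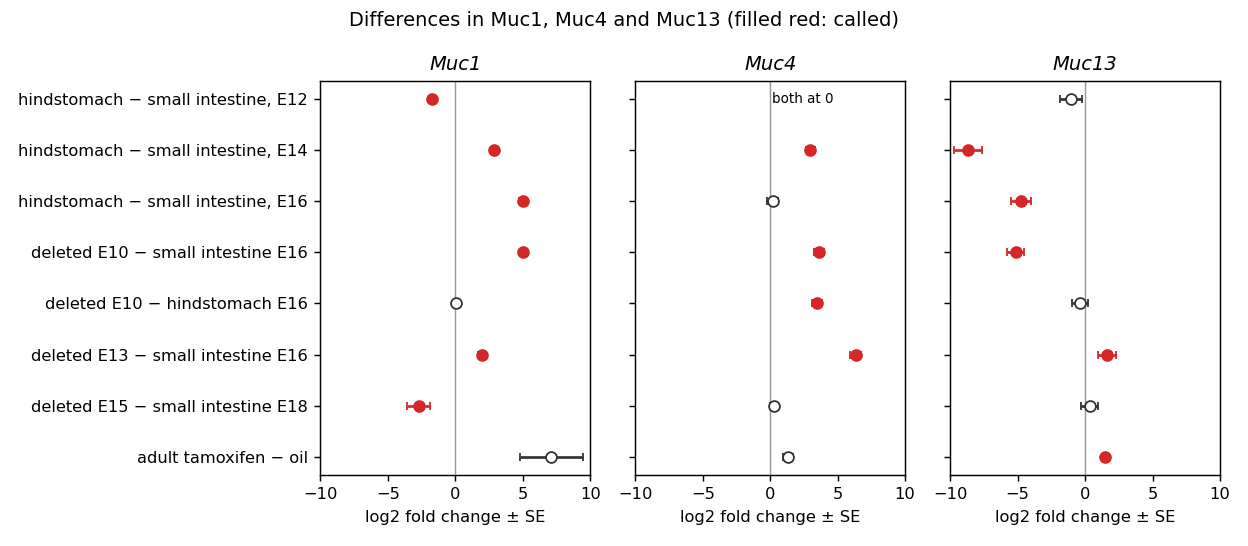
Log2 fold changes (first group over second) with standard errors for Muc1, Muc4 and Muc13 in 8 comparisons, filled red where called and open where not. Muc1 and Muc13 lie on opposite sides of 0 in hindstomach against small intestine at E16 (5.00 and -4.77) and in libraries labelled deleted at E10 against small intestine (5.05 and -5.16).

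The other mucins of the table give these values their setting. Of 5 gel-forming mucins, 4 were tested in the embryonic libraries. With the E10 label, Muc5ac and Muc5b, of gastric surface and airway or gland mucus, rose from 0 in all E16 intestine libraries to 17.01 ± 5.35 and 24.1 ± 3.18 CPM (SD, n = 3), and Muc6 of gastric glands rose by 3.66 on the log2 scale. Muc2 of intestinal goblet cells fell (log2 -2.16, adjusted p = 0.00307). All 4 were thus called, where 51.5% of genes were. In those labelled deleted at E13, Muc5ac rose to 611 CPM from 0 in wild type, Muc6 rose (log2 6.95) and Muc2 rose (log2 5.05, adjusted p = 3.55e-06), 3 of 4 against 39.5% of genes. In those labelled deleted at E15 none of the 4 was called, where 17.5% of all genes were. In wild-type E16 hindstomach, Muc5ac, Muc5b and Muc6 were higher and Muc2 (log2 -3.23) lower than in small intestine, 4 of 4 against 25.7% of genes. Of the other membrane mucins searched, Muc15, Emcn and Cd164 were in the table. Cd164 fell in the libraries labelled deleted at E10 (log2 -1.70, adjusted p = 2.47e-09) and rose in the adult ones (log2 1.05, adjusted p = 0.0237). Emcn was called lower in those labelled deleted at E13, at 0 against 1.00 CPM in wild type (39 counts over both libraries). Endothelium markers summed to 9.60e-05% to 0.000139% of counts with that label and 0.00326% to 0.00363% in E16 intestine, and their part was not tested. Muc15 was called higher in E16 forestomach than in both other organs, at 2.31 CPM.

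Genes that build the O-linked sugars and the receptors that membrane mucins pair with were counted in the same comparisons. Of 11 Galnt transferases, which begin the sugar chains, 1 rose and 5 fell in the libraries labelled deleted at E10 against E16 intestine (median log2 -1.40, over all genes -0.10), with Galnt6 at -3.76, in a comparison that called 51.5% of genes. In those labelled deleted at E13, 3 of 11 rose and none fell (median -0.02, over all genes -0.05), with Galnt6 at 3.01, where 39.5% of genes were called. Of 11 chain-extending enzymes tested, 2 rose and 4 fell after the E10 label (St3gal1 -5.41, Gcnt3 2.61), again near the 51.5% over all genes. After the E13 label 6 rose and 1 fell (B4galnt2 4.31, B3gnt3 4.11, St3gal1 -5.66), against 39.5%. Among 8 partner genes, 1 rose and 5 fell with the E10 label (Lgals3 3.63, Erbb3 -4.33), against 51.5% of genes. With the E13 label 4 rose (Lgals3 3.62, Src 2.09), against 39.5% of genes. Erbb3 and Erbb2 are receptors that Muc4 is known to engage, and Lgals3 encodes galectin-3, a lectin that binds mucin sugars. In E16 forestomach against small intestine, 7 of 11 Galnt genes and 8 of 11 chain-extending enzymes were lower, against 16.4% of all genes, and 1 extending enzyme was higher, against 18.6%. With the E15 label, 2 of 11 Galnt genes rose, 4 of 11 extending enzymes rose (among them Fut2, 6.68, and Gcnt3, 3.43) and 2 fell, and of 8 partners 1 rose and 1 fell (Lgals3, -2.01), against 17.5% of genes. In adult ileum 2 of 10 Galnt genes rose (Galnt3 1.75 and Galnt4 1.64), and 4 of 12 extending enzymes rose and 3 fell, against 20.5% of genes called.

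Genes with a course like that of each member were found by Pearson's r of group mean log2 CPM over 13 embryonic groups, as a description. For Muc13 they were Cps1 (r = 0.979), which encodes the carbamoyl phosphate synthase of the urea cycle, the receptor gene Gpr128 (0.972) and Pdzd3 (0.970), a PDZ scaffold gene of the brush border. Cps1 had a mean of 3572 CPM in E16 intestine, 35.1 with the E10 label, and 0.0772 in E16 forestomach. For Muc1 they were Slc9b2 (0.890), the clusterin gene Clu (0.888) and C2cd4a (0.885). Clu had a mean of 1150 CPM in E16 hindstomach, 30.99 in E16 intestine and 4064 in the libraries labelled deleted at E10. For Muc4 they were the receptor gene Tlr3 (0.943), Cyp4v3 (0.928) and the aldehyde dehydrogenase gene Aldh1a7 (0.919), of which Tlr3 and Cyp4v3 were at 0 in E12 hindstomach and E12 intestine respectively, as Muc4 was in both. For Muc20 the closest were Ell2 (0.851), Sidt1 (0.833) and Atp2a3 (0.817).

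**Figure D4:**
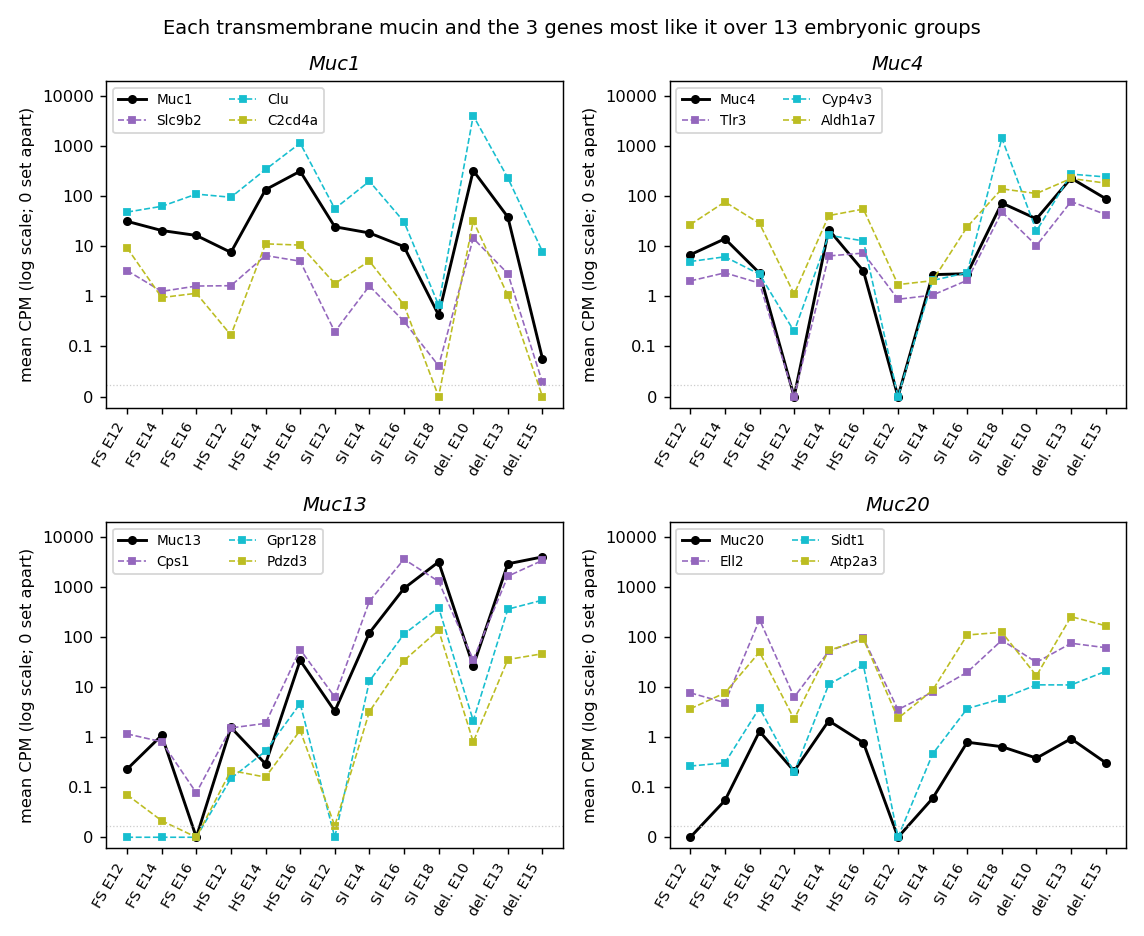
Mean CPM (log axis, 0 set apart) of each member (black) and of the 3 genes with the highest Pearson's r to it, over 13 embryonic groups, with FS forestomach, HS hindstomach, SI small intestine and del. the libraries labelled deleted at that day. With the E10 label the mean of Cps1 is 35.1 CPM against 3572 in E16 small intestine, and that of Muc13 is 26.4 against 931.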

How the data were processed

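RNA-seq counts per gene symbol were deposited by the authors as 1 table of raw counts for all libraries. The submitters' processing notes name STAR 2.5.3a, HTSeq and mm9, and, with no roles given, Bowtie2 and MACS2. Embryonic libraries were made with the SMARTer kit and adult ones with TruSeq, and reads were 75 bp single-end, per the labels' protocols. Each of the 4 adult columns had 2 blank cells, which were closed up (all 4 members stand above the first). A further 2 value columns matched no sample and were not used. The 27 embryonic libraries were fitted together in edgeR 4.0.16 (R 4.3.3, limma 3.58.1) with TMM scaling, 13 groups and filterByExpr at a minimum count of 10 (17239 genes), and the 4 adult libraries apart (12444 genes). A call needed a Benjamini-Hochberg adjusted p under 0.05 and an absolute log2 fold change of at least 1. Standard errors are the fold change over the root of F. On simulated counts the fit called 129 of 200 changed genes in the embryonic step (16749 tested) and 152 of 200 in the adult step (12241 tested), with 4 and 16 false calls. Alternatives were RLE scaling, no filter, DESeq2 1.42.0, only the groups compared, a replicate block, each library left out, no fold minimum and a fit of all 31 libraries. Where leaving out a library left 1 in a group, the other groups of the fit supplied the spread. The genes named were the members, genes of lists of mucin genes and the 3 most similar genes per member. The members and lists were chosen with earlier results of these data known. Between libraries of a group, chi-square per degree of freedom ran from 1.5 (E18 wild type) to 123 (E10 label), with 2.4 for the E13 and 4.8 for the E15 label. No pair agreed within sampling noise, and whether the closest pairs are technical replicates is not given.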

Additional observations from a re-analysis of the deposited data

Results flagged for a closer look

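Differences between organs or deletion days in the change of a member passed the test of the difference itself in 9 cases, of 4 differences tested for each of 4 members. Over all genes the shares called were 20.3% (small intestine minus hindstomach), 30.8% (small intestine minus forestomach), 20.2% (hindstomach minus forestomach) and 37.9% (E13 minus E15 label). Each value is a difference of log2 changes from edgeR's quasi-likelihood test. From E12 to E16, the change of Muc1 was lower in small intestine than in hindstomach (-6.70, adjusted p = 4.44e-10) and higher in hindstomach than in forestomach (6.32, adjusted p = 6.38e-10). Values against hindstomach rest on the libraries labelled E12 hindstomach, whose Cdx2 goes against that label. The change of Muc13 was higher in small intestine than in hindstomach (3.69, adjusted p = 0.0168) and than in forestomach (13.43, adjusted p = 0.0152). The value against forestomach rests on E16 libraries at 0 counts, so it depends on the prior count and is no measure of size. The former was not called by DESeq2 (3.71, adjusted p = 0.119) or with only the groups compared (3.79, adjusted p = 0.0726). Nor was it called without hindstomach E12 replicate 2 (3.51) or E16 replicate 1 (3.56). Its value ran from 2.79 without small intestine E12 replicate 1 to 6.70 without small intestine E12 replicate 2. The latter was not called with only the groups compared (0.142) or without forestomach E12 replicate 1 (8.13).

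Muc4 changed more in small intestine (10.33, adjusted p = 1.34e-06) and in hindstomach (10.50, adjusted p = 1.39e-06) than in forestomach. Both values rest on groups at 0 counts at E12, so they depend on the prior count and are no measure of size. The change of Muc20 was lower in hindstomach than in forestomach (-6.13, adjusted p = 0.0477), on 14 counts in a single E12 hindstomach library, without which the value was -0.75. It was not called with no filter (adjusted p = 0.0573), with only the groups compared (0.1497), with a replicate block (0.0839) or in 5 of 8 cases with a library left out. The log2 difference of knockout from wild type was higher with the E13 than with the E15 label for Muc1 and Muc4. For Muc1 it was 4.67 (adjusted p = 0.000215, and 3.79 to 8.41 with a library left out), and for Muc4 6.04 (adjusted p = 3.75e-08). Deletion day and day of collection change together between these labels.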

How the results depend on the processing

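Of 107 log2 fold changes of members, DESeq2 kept the direction and the call in 96, RLE scaling in 106, no filter in 104 and no fold minimum in 105, and fitting only the groups compared in 79 of 90. Of 508 values with a library left out, 436 kept both, 41 lost the call, 9 gained it and 22 turned sign. Muc4 in forestomach against hindstomach at E16 turned to 0.056 with DESeq2 and 0.055 with RLE. The median over all genes shifted with RLE by over 0.1 in 9 of 27 differences, from -0.17 to 0.26 (the highest in forestomach from E14 to E16). Levels in CPM depended on the scaling as well. With RLE 45 levels of members were labelled as the same and 15 as moved. With TMM over all 31 libraries these were 41 and 19, and with total counts alone 27 and 33. The sizes of these moves are not given here. With a replicate block, 101 of 107 kept both, and Muc20 turned to -0.14 in forestomach against small intestine at E14 and to 0.18 in hindstomach against small intestine at E16. Same-numbered libraries of 78 pairs of groups correlated at -0.0376 to 0.0973, and those of the adult pair of groups at -0.152. The check thus found no sign of pairing by number, though it cannot exclude shared litters or days. In adult ileum the block called Muc1 (6.66, adjusted p = 0.0451) and Muc4 (1.44, adjusted p = 0.0449). Elsewhere it called Muc20 in hindstomach from E12 to E14 (3.60, adjusted p = 0.0491) and lost the Muc20 change of hindstomach against forestomach (-5.63, adjusted p = 0.0839). The causes were not tested.

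Counts of genes called moved by over 1.5 times with only the groups compared: 188 (forestomach against small intestine) and 122 (hindstomach against small intestine) at E12, 214 (small intestine E12 to E14), 2233 (forestomach against hindstomach) and 2480 (hindstomach against small intestine) at E14, and 3532 and 1890 for the changes of small intestine against forestomach and hindstomach. Without a fold minimum they were 4298 in adult ileum, 5238 for the E15 label, 2834 and 2549 for forestomach and hindstomach against small intestine at E12, and 3142 and 1940 at E14. They were 5674 for forestomach against hindstomach and 6657 for hindstomach against small intestine at E16. Over time they were 4357 (forestomach E12 to E14), 5381 and 6082 (hindstomach) and 5159 and 7029 (small intestine). With a library left out they ran from 961 to 1128 (forestomach against hindstomach, E14), 1102 to 3981 and 1138 to 3899 (forestomach and hindstomach against small intestine, E12), 670 to 853 (hindstomach against small intestine, E14), 2467 to 3098 (hindstomach E14 to E16), 1762 to 4895 (small intestine E12 to E14) and 1255 to 2055 (adult).

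Leaving out a library turned the sign of some values that had not been called. Muc13 ran from -5.29 to 7.78 (forestomach E12 to E14), -5.84 to 2.88 (forestomach against hindstomach, E14) and -1.98 to 1.93 (hindstomach against small intestine, E12). Muc1 ran from -0.73 to 0.075 (change of small intestine against forestomach), -0.79 to 0.016 (forestomach E14 to E16) and -0.17 to 0.23 (E10 label against hindstomach). Muc4 ran from -1.42 to 0.47 (change of small intestine against hindstomach), -1.18 to 0.71 (small intestine E14 to E16), and at E16 -0.40 to 0.071, -0.62 to 1.28 and -0.47 to 1.42 (forestomach against hindstomach, forestomach and hindstomach against small intestine). Muc20 ran from -1.43 to 0.77 (change of small intestine against forestomach), -3.56 to 0.90 (forestomach against small intestine, E14), -0.74 to 2.08, -0.77 to 1.43 and -1.36 to 0.65 (the same 3 organ pairs at E16), -1.71 to 0.30 (E10 label against hindstomach) and -0.085 to 0.50 (E13 label). Values of Muc20 and of E18 and adult control Muc1 rest on low counts.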

Other observations

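Between the 2 adult libraries labelled knockout, Muc1 was among the genes with the largest excess in replicate 2 over replicate 1, a comparison chosen after its values were seen. By total counts, Muc1 was at 0.907 CPM in replicate 1 and 40.7 in replicate 2. On the scale of log2(CPM + 1) that is a gap of 4.45, which ranked 2 among 24015 symbols by excess in replicate 2, after Gm14085 (6.46). The same gap was 0.11 for Muc13, -0.18 for Muc4 and -0.26 for Muc20.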
